A study of Mus musculus with 8 samples.

Results

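The 9 genes described here encode 6 matrix metalloproteinases (MMPs: Mmp8, Mmp9, Mmp12, Mmp13, Mmp14 and Mmp19) and 3 tissue inhibitors of metalloproteinases (TIMPs: Timp1, Timp2 and Timp3). They are 9 of the 54532 genes counted in each library, and all 9 were among the 14591 genes with enough counts to be tested. The members were chosen by gene family with the values of one contrast in view, since Mmp8 had been seen to rise with H151. For that reason every value of a member with H151 against vehicle-treated Trex1-KO cells, and every H151 value of Mmp8, is given as a description with no test.

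MMPs are zinc-dependent endopeptidases that cleave collagens, elastin, basement membrane and other extracellular proteins, most of them after removal of an inhibitory propeptide. TIMPs are secreted proteins that bind the active site of the mature enzymes and block it, so protease and inhibitor are usually considered together. Macrophages and neutrophils are well known sources of several of these enzymes in inflamed tissue, and fibroblasts are major sources of the inhibitors. The counts used here measure transcripts only, and say nothing of secretion, activation or enzyme activity.

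Polyadenylated RNA was sequenced from bone marrow-derived macrophages (BMDMs). These were grown for 7 days from the tibial and femoral marrow of mice aged 6 to 8 weeks, with L929 cell supernatant in the medium, and gave 4 groups of 2 libraries: BMDMs of WT mice, BMDMs of Trex1-/- mice (Trex1-KO), and Trex1-KO BMDMs given H151 or SN-011, both small-molecule antagonists of STING, the adaptor downstream of the DNA sensor cGAS. Trex1 is an exonuclease that removes cytosolic DNA, and its loss activates this pathway. Treatment lasted 12 h, and H151 was used at 500 nM. The WT and Trex1-KO groups without an antagonist were given the vehicle, DMSO. SN-011 was used at the same nominal concentration according to the study's methods. The 2 SN-011 libraries were registered under sample numbers apart from those of all other libraries. A difference between these sets of libraries therefore cannot be told apart from an effect of SN-011. The study calls the replicates of these cells independent experiments, but the labels do not say whether they came from separate animals, so p-values measure the spread between these libraries. All mice were on the C57BL/6J background, and the labels give no sex. Trex1 itself was at 0 counts in all 8 libraries, WT included, and all of its 1147 exonic bases lie within exons of another gene, so these counts could not check the knockout.

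Total counts ran from 11845470 to 17284863 per library, and after TMM scaling (the trimmed mean of M-values) a single count equalled 0.0581 to 0.0848 CPM, the unit of scaled counts used below. The members had between 91 and 13364 counts per library. The 8 macrophage markers were all detected and summed to between 30100 and 32300 CPM in every library. Markers of other cells moved with the knockout. The 15 fibroblast and osteoblast markers summed to 2710 and 2970 CPM in WT and to between 1120 and 1580 CPM in the 6 Trex1-KO libraries, and 10 of 13 tested were lower in Trex1-KO than in WT. The 15 neutrophil markers summed to 261 and 288 CPM in WT and to between 397 and 447 CPM in the 6 Trex1-KO libraries, and 9 of 10 tested were higher in Trex1-KO than in WT. Csf3r, which macrophages also express, made up most of that sum, and the other 14 markers went from 11.1 and 11.2 CPM in WT to between 78.5 and 109 CPM. The defining neutrophil genes Ly6g, Mpo, Elane and Cxcr2 had at most 11 counts in any library. Elane was at 0 in both WT libraries and at 3 to 7 counts in the 6 Trex1-KO libraries, Ly6g at 0 and at 0 to 3, Cxcr2 at 0 and 1 and at 1 to 8, and Mpo at 0 and 3 and at 1 to 11. In bulk samples like these, fewer cells of a type and less RNA per cell cannot be told apart. A gene is called when its adjusted p is below 0.05 in the edgeR quasi-likelihood F-test, adjusted over all 14591 genes, and fold changes are on the log2 scale with an approximate standard error (SE).

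Levels per length showed that the inhibitors together far outweighed the proteases, through Timp2 and Timp1. Timp3 had a lower mean CPM per kb of exon than Mmp14 in every group. Timp2 stood at 180 to 213 CPM per kb of exon over the 8 libraries, above every other member in each of them. Timp1 came next, with 58.2 and 69.1 CPM per kb in WT and 24.9 to 34.4 CPM per kb in the Trex1-KO libraries. In WT the order then ran Mmp14 (means of 2 libraries, 17.5 CPM per kb), Timp3 (10.8), Mmp19 (8.00), Mmp13 (3.56), Mmp8 (2.99), Mmp9 (2.19) and Mmp12 (1.13), and no neighbours in this order overlapped between the 2 WT libraries. In Trex1-KO, Timp3 and Mmp19 overlapped. With H151, Mmp8 reached 9.71 and 11.1 CPM per kb and overlapped Mmp14, which was the most abundant of the 6 proteases in WT and in vehicle-treated Trex1-KO. With SN-011, Timp3 overlapped both Mmp14 and Mmp19, Mmp8 overlapped Mmp13, and Mmp12 overlapped Mmp9. Lengths are the union of annotated exons, which at 7237 bases is long for Mmp12 and lowers its value per kb. Bases shared with other genes also lower the values of Mmp19 (28.3% shared) and Timp3 (21.3%). Per kb of unshared exon, Mmp19 stood at 10.1 and 10.4 CPM with SN-011 and Mmp14 at 8.39 and 7.88 CPM, so the order of these 2 in that group depends on the length used.

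**Figure D1:**
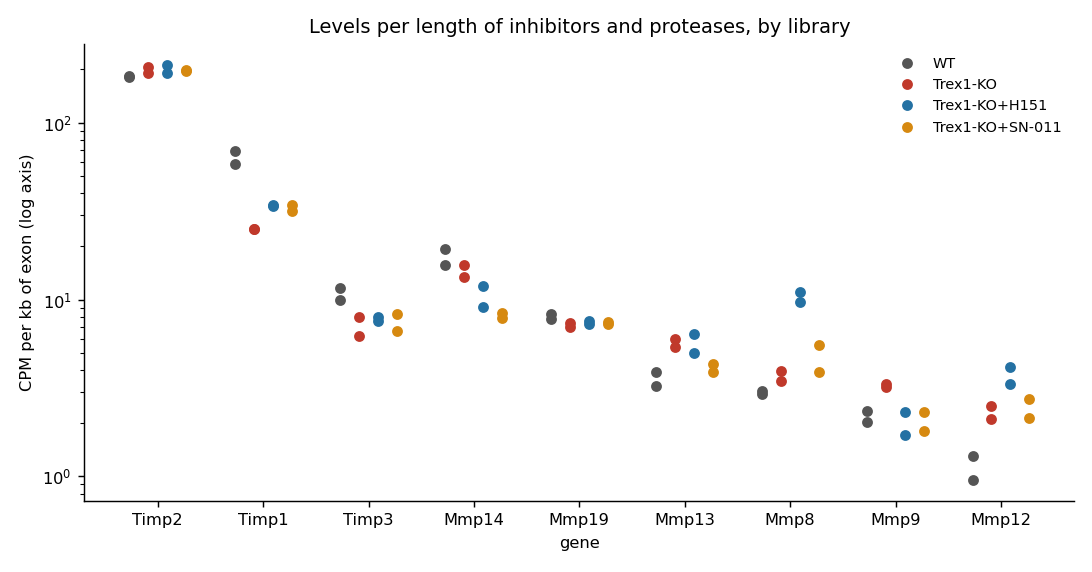
Level of each of the 9 genes in CPM per kb of exon (log axis), with 1 point per library and colours for the 4 groups. Timp2 lies at 180 to 213 CPM per kb in all libraries, and Mmp8 reaches 9.71 and 11.1 CPM per kb in the 2 H151 libraries.

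The summed level of the 6 proteases was 0.132 and 0.144 of the summed level of the 3 inhibitors in WT, 0.156 and 0.161 in Trex1-KO, 0.156 and 0.170 with H151, and 0.113 and 0.130 with SN-011. Within these 9 genes the 2 SN-011 libraries had the lowest ratios and lay below both vehicle-treated Trex1-KO libraries, with 27.4 and 30.2 CPM per kb of summed protease transcripts against 36.0 and 37.4. Over all 23 MMP and 4 TIMP genes listed here, Mmp27, Mmp2 and Mmp23 included, the ratio was 0.286 and 0.294 in WT, 0.278 and 0.286 in Trex1-KO, 0.321 and 0.323 with H151, and 0.24 and 0.265 with SN-011. On that wider sum the Trex1-KO libraries did not lie above WT, and the SN-011 libraries were again the lowest. Timp2 made up 69.1% and 72.9% of the inhibitor sum in WT and between 81.8% and 86.1% in the 6 Trex1-KO libraries.

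Loss of Trex1 was compared first, since both antagonists were given only to Trex1-KO cells. In this contrast 5 of the 9 members were called, against 16.4% of all tested genes, with Mmp12, Mmp13 and Mmp9 higher and Timp1 and Timp3 lower. All 9 members had groups that did not overlap, as did 56.1% of all tested genes, and the median log2 fold change of the members was 0.13 against -0.002 over all genes. So 3 of the 6 proteases were called higher and 2 of the 3 inhibitors lower in Trex1-KO BMDMs, while Mmp8, Mmp14, Mmp19 and Timp2 were not called. The calls of Mmp9 and Mmp13 did not hold when certain single libraries were left out. Of the 8 other MMP and TIMP genes tested, 0 were called higher and 3 lower.

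**Figure D2:**
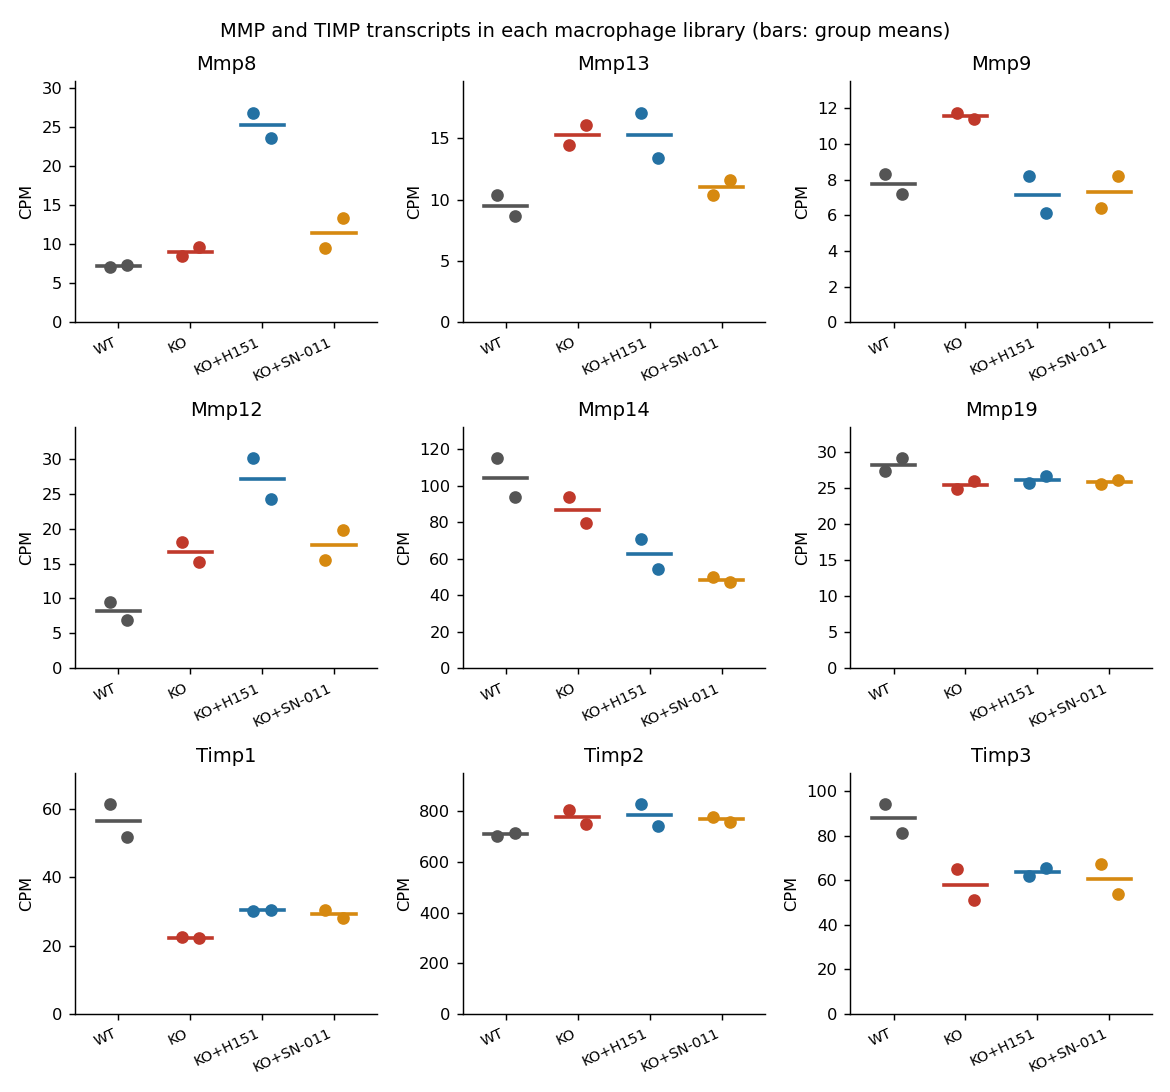
CPM of each of the 9 genes in every library (vertical axis from 0, 1 point per library, bars at the group means). Mmp8 stands apart with H151 at 23.6 and 26.9 CPM, Mmp14 is lowest with SN-011 at 47.0 and 50.0 CPM, and Timp1 is highest in WT at 51.6 and 61.4 CPM.

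Mmp8, neutrophil collagenase, cleaves fibrillar collagens and is stored in the granules of neutrophils, but is transcribed by macrophages as well (ENSMUSG00000005800, GRCm38 chromosome 9, 7558456 to 7568485, plus strand). Its level was 7.13 and 7.38 CPM in WT, 8.44 and 9.62 in Trex1-KO, 26.9 and 23.6 with H151, and 9.47 and 13.4 with SN-011. The H151 libraries were well above all 6 others, and the SN-011 libraries overlapped vehicle-treated Trex1-KO. As a description, the H151 level was 2.78-fold that of vehicle-treated Trex1-KO (log2 1.47) and 3.46-fold that of WT (log2 1.79). Trex1 loss alone gave a log2 fold change of 0.32 ± 0.18 (SE, adjusted p = 0.3), which was not called. SN-011 against vehicle-treated Trex1-KO gave the same size, 0.32 ± 0.18 (adjusted p = 0.511, 95% interval -0.06 to 0.70). SN-011 against WT was called at 0.63 ± 0.18 (adjusted p = 0.0354), but not without SN-011 replicate 2 (0.37, adjusted p = 0.335), without WT replicate 1 (adjusted p = 0.19) or without WT replicate 2 (adjusted p = 0.136), nor with scaling by total counts alone (adjusted p = 0.0548). The 14 neutrophil markers other than Csf3r summed to 78.5 and 98.3 CPM in vehicle-treated Trex1-KO and to 94.6 and 86.3 CPM with H151, and the part of such cells in the Mmp8 values was not tested.

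Mmp8 lies in a run of MMP genes on chromosome 9 that also holds Mmp12 and Mmp13, and the transcript most like it over the 8 libraries was its direct neighbour. Over 14590 other tested genes, Mmp27 had the highest Pearson's r with Mmp8 on the log2 CPM scale (0.987, n = 8 libraries, which share scaling and groups), followed by Gsdme (0.969), Dtx4 (0.965), C130050O18Rik (0.964) and Rcbtb2 (0.96). Mmp27 encodes a further MMP, starts 2910 bases after the end of Mmp8 and is read from the same strand. Mmp27 stood at 29.7 and 31.7 CPM in WT, 35.6 and 36.5 in Trex1-KO, 55.6 and 55.1 with H151, and 36.9 and 43.6 with SN-011. Per kb of exon Mmp27 was above Mmp8 in every library, at 13.4 to 25.2 CPM per kb. Its H151 libraries were above the 6 others, a difference of 0.62 on the log2 scale from vehicle-treated Trex1-KO against 1.47 for Mmp8, and the orders of the 4 groups were alike. The pattern of Gsdme, the gene of the pore-forming protein gasdermin E, was 5.44 and 5.14 CPM in WT, 5.35 and 6.13 in Trex1-KO, 8.79 and 8.65 with H151, and 5.23 and 6.28 with SN-011.

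Across the run the change with H151 was uneven. Mmp12, which starts 214 kb before Mmp8, differed by 0.70 on the log2 scale, whereas Mmp13, which starts 286 kb before Mmp8, differed by -0.01. The flanking genes outside the run, Dcun1d5 and Tmem123, differed by 0.03 and -0.17. Mmp1b, Mmp3, Mmp7 and Mmp20, which lie between or beside the expressed members, had 0 counts in all libraries, Mmp10 had at most 2, and Mmp1a, which this annotation lists as a polymorphic pseudogene, had at most 1. Trex1 is on the same chromosome, 101.5 Mb from Mmp8.

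**Figure D3:**
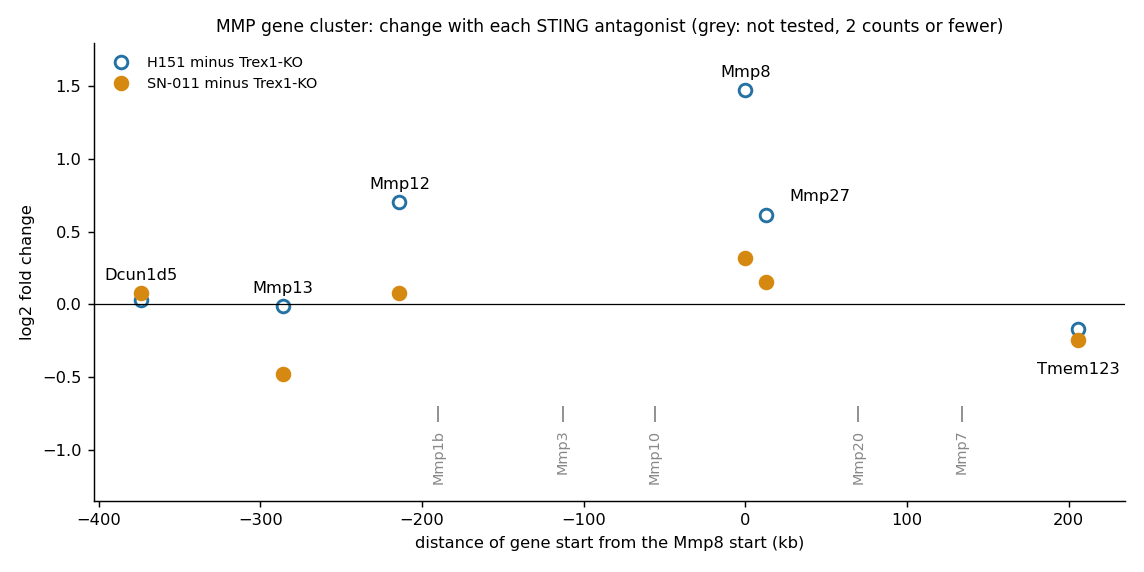
Log2 fold change of the genes annotated as protein-coding in the chromosome 9 MMP run (Mmp1a is not among them) and 1 gene on each side, against the distance of each gene's start from that of Mmp8 in kb (open points, H151 minus Trex1-KO, no test; filled points, SN-011 minus Trex1-KO; grey marks, genes with 2 counts or fewer). Mmp8 (1.47), Mmp12 (0.70) and Mmp27 (0.62) lie above 0 with H151, and Mmp13 lies at -0.01.

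The promoter windows of these neighbours are shown because Mmp8, Mmp27 and Mmp12 were higher with H151 than in vehicle-treated Trex1-KO, while Mmp13 was not. Each is the 250 bases before a RefSeq start on the plus strand of GRCm38.p6, and capitals mark matches on either strand to the AP-1 motif TGANTCA or to the TATA box TATAAA:
Mmp8 (chr9:7558179-7558428): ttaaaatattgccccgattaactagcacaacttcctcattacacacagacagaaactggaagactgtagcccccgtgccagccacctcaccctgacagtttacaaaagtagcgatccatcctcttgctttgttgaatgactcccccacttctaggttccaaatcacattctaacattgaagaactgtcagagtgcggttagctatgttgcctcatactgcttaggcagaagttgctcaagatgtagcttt
Mmp27 (chr9:7571146-7571395): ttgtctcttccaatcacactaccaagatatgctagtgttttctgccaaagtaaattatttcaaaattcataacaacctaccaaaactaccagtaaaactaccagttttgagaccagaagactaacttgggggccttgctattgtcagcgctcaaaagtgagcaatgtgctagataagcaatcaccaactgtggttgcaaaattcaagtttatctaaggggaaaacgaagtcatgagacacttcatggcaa
Mmp12 (chr9:7347124-7347373): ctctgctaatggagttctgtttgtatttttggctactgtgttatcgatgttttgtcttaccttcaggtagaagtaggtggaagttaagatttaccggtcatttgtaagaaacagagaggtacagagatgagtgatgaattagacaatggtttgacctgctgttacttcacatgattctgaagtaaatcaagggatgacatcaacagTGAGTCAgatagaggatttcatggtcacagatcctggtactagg
Mmp13 (chr9:7272264-7272513): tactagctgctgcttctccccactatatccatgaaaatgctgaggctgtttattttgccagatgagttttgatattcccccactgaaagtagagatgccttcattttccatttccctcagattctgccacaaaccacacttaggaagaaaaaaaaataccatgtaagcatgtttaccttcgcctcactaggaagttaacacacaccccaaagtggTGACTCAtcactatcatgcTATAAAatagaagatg

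Mmp8 and Mmp27 held neither motif in these windows. Mmp13 held both, with the AP-1 match beginning 35 bases and the TATA box 16 bases before the start, and Mmp12 held an AP-1 match 44 bases before this start and none before its other RefSeq start (chr9:7344147-7344396). AP-1 is the dimer of Fos and Jun family proteins, long known for its site in collagenase promoters. Of 32851 windows of this length, 6.75% held the AP-1 motif and 12.4% the TATA box. A match to the interferon-stimulated response element core (2.98% of windows) was found in Mmp13 alone among the 7 members with a window. Mmp14, Timp1, Timp2 and Timp3 held no AP-1 or TATA box match. These matches describe letters and not binding.

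Mmp13, or collagenase 3, cleaves type II collagen and is a main collagenase of rodents (ENSMUSG00000050578, chromosome 9, 7272514 to 7283331, plus strand). Its level was 10.4 and 8.66 CPM in WT, 14.5 and 16.1 in Trex1-KO, 17.1 and 13.4 with H151, and 10.4 and 11.6 with SN-011. The Trex1-KO libraries lay above both WT libraries, the H151 libraries spanned the vehicle-treated ones, and the SN-011 libraries lay below them. Trex1 loss raised Mmp13 by 0.69 ± 0.16 (SE, adjusted p = 0.00896), a call that was lost without Trex1-KO replicate 2 (adjusted p = 0.0585) or WT replicate 2 (adjusted p = 0.116). With H151 it was still above WT by 0.67 ± 0.16 (adjusted p = 0.0144), also not called without H151 replicate 1 (adjusted p = 0.13) or WT replicate 2 (adjusted p = 0.146). SN-011 differed from vehicle-treated Trex1-KO by -0.48 ± 0.16 (adjusted p = 0.19) and from WT by 0.21 ± 0.17 (adjusted p = 0.53), and neither passed the test.

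Mmp9, gelatinase B, degrades denatured collagen and basement membrane collagen (ENSMUSG00000017737, chromosome 2, 164940780 to 164955850). It was measured at 8.31 and 7.17 CPM in WT, 11.8 and 11.4 in Trex1-KO, 8.22 and 6.11 with H151, and 6.39 and 8.23 with SN-011. The vehicle-treated Trex1-KO libraries were the 2 highest, and the libraries of both antagonists overlapped WT. Trex1 loss raised Mmp9 by 0.58 ± 0.18 (adjusted p = 0.0457), close to the threshold. This call was lost when any 1 of the 4 libraries was left out (adjusted p from 0.101 to 0.276), with DESeq2 (adjusted p = 0.121) and with scaling by total counts alone (adjusted p = 0.0837). SN-011 gave a difference of -0.68 ± 0.18 from vehicle-treated Trex1-KO that missed the threshold (adjusted p = 0.0893, 95% interval -1.08 to -0.28) and passed it with the edgeR exact test (adjusted p = 0.022). H151 gave -0.70, as a description. Lcn2, whose product binds Mmp9 and shields it from degradation, rose by 3.61 ± 0.30 (adjusted p = 1.71e-06) with Trex1 loss, from a mean of 0.669 to 8.30 CPM, and is also one of the neutrophil markers.

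Mmp12, macrophage elastase, is the family member most closely tied to macrophages (ENSMUSG00000049723, chromosome 9, 7344381 to 7369499, with 2.17% of its exonic bases shared with Mmp1b). Its level was 9.48 and 6.90 CPM in WT, 18.1 and 15.2 in Trex1-KO, 30.1 and 24.2 with H151, and 15.6 and 19.8 with SN-011. WT was lowest, H151 highest, and SN-011 overlapped vehicle-treated Trex1-KO. Trex1 loss raised it 2.03-fold, or by 1.02 ± 0.19 (adjusted p = 0.00157), the largest rise among the members. It was also higher than WT with SN-011, by 1.10 ± 0.19 (adjusted p = 0.00126), and with H151, by 1.73 ± 0.18 (adjusted p = 2.66e-05). SN-011 against vehicle-treated Trex1-KO gave 0.08 ± 0.17 (adjusted p = 0.901, 95% interval -0.29 to 0.45), and H151 gave 0.70 as a description.

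Mmp14, or MT1-MMP, is anchored in the plasma membrane, cleaves collagen at the cell surface and activates pro-MMP2 in a complex with Timp2 (ENSMUSG00000000957, chromosome 14, 54431612 to 54445364). The libraries held 115 and 93.7 CPM in WT, 93.5 and 79.6 in Trex1-KO, 70.7 and 54.1 with H151, and 50.0 and 47.0 with SN-011. The groups stepped down in that order without overlap, although the lower WT library and the higher Trex1-KO library nearly met. SN-011 lowered Mmp14 1.78-fold against vehicle-treated Trex1-KO, or by -0.83 ± 0.13 on the log2 scale (adjusted p = 0.0019), the only 1 of 9 members called in that contrast, where 2.33% of all tested genes were called. Trex1 loss alone gave -0.27 ± 0.12 (adjusted p = 0.164). This was called when all genes with at least 1 count were kept (adjusted p = 0.00642). That setting took the adjusted p of Timp1 with Trex1 loss from 5.63e-07 to 2.86e-33. The log2 fold change of Timp1 was nearly the same in both (-1.343 and -1.358). Calls gained under that setting are given as values only, not as support. Against WT, Mmp14 was lower with SN-011 by -1.10 ± 0.13 (adjusted p = 5.76e-05) and with H151 by -0.75 ± 0.12 (adjusted p = 0.0011). The fibroblast and osteoblast markers were lower in the same contrasts, with a median log2 fold change of -1.02 with SN-011 and -0.83 with H151, and 9 of 13 tested were called lower in each. The fibroblast and osteoblast marker sum was 1410 and 1120 CPM in vehicle-treated Trex1-KO and 1470 and 1250 CPM with SN-011, and 0 of its 13 tested genes were called in the contrast with vehicle-treated Trex1-KO by edgeR or DESeq2 or had an unadjusted p under 0.05. The part of these cells in the Mmp14 values was not tested.

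Mmp19 is a secreted MMP that cleaves basement membrane components and is found in myeloid cells (ENSMUSG00000025355, chromosome 10, 128790910 to 128800824, with 28.3% of its exonic bases shared with Gm47093 and Tmem198b). It was steady at 27.3 and 29.2 CPM in WT, 24.9 and 26.0 in Trex1-KO, 25.7 and 26.7 with H151, and 25.6 and 26.2 with SN-011. WT was slightly above the 6 others, and the 3 Trex1-KO groups overlapped. No tested contrast of Mmp19 was called, and the Trex1-KO difference from WT was -0.15 ± 0.09 (adjusted p = 0.331, 95% interval -0.36 to 0.05).

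Timp1, an inducible inhibitor with broad activity against secreted MMPs, showed the largest change of any member on loss of Trex1 (ENSMUSG00000001131, chromosome X, 20870166 to 20874735). The transcript stood at 61.4 and 51.6 CPM in WT, 22.4 and 22.1 in Trex1-KO, 30.0 and 30.5 with H151, and 30.5 and 28.0 with SN-011. WT was far above the rest, and the libraries of both antagonists lay between vehicle-treated Trex1-KO and WT without overlapping either. Trex1 loss lowered Timp1 2.54-fold (-1.34 ± 0.10, adjusted p = 5.63e-07). It was still lower than WT with H151 (-0.90 ± 0.10, adjusted p = 4.1e-05) and with SN-011 (-0.95 ± 0.10, adjusted p = 2.69e-05). SN-011 against vehicle-treated Trex1-KO gave 0.40 ± 0.11, which missed the threshold (adjusted p = 0.0817) but passed it with the edgeR exact test (adjusted p = 0.0383), and H151 gave 0.44 as a description. The fibroblast and osteoblast marker sum was 1410 and 1120 CPM in vehicle-treated Trex1-KO, 1580 and 1440 CPM with H151 and 1470 and 1250 CPM with SN-011. With H151 the median log2 fold change of its 13 tested genes was 0.24, and 4 of them had an unadjusted p under 0.05 while 0 were called by edgeR or DESeq2, in a contrast where 2.23% of all genes were called. Their part in the Timp1 values was not tested.

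Timp2 inhibits MMPs and also assists Mmp14 in activating pro-MMP2 (ENSMUSG00000017466, chromosome 11, 118301069 to 118355740, minus strand). It stood at 703 and 716 CPM in WT, 804 and 748 in Trex1-KO, 828 and 743 with H151, and 777 and 759 with SN-011. WT was lowest, and the 3 Trex1-KO groups overlapped. Its difference between Trex1-KO and WT was 0.13 ± 0.06 (adjusted p = 0.189, 95% interval -0.0014 to 0.26), and none of its tested contrasts was called.

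Timp3 binds to the extracellular matrix and inhibits ADAM and ADAMTS proteases as well as MMPs (ENSMUSG00000020044, chromosome 10, 86300372 to 86349506, with 21.3% of its exonic bases shared with Syn3 on the opposite strand). It was counted at 94.2 and 81.4 CPM in WT, 65.1 and 51.0 in Trex1-KO, 61.9 and 65.3 with H151, and 67.4 and 53.9 with SN-011. Both WT libraries lay above all 6 others, which overlapped one another. Trex1 loss lowered it by -0.60 ± 0.12 (adjusted p = 0.00319). Against WT it was lower with H151 (-0.46 ± 0.12, adjusted p = 0.0217) and with SN-011 (-0.53 ± 0.12, adjusted p = 0.0101). The H151 call was lost without H151 replicate 1 (adjusted p = 0.0557) or WT replicate 1 (adjusted p = 0.193), and the SN-011 call without SN-011 replicate 2 (adjusted p = 0.131) or WT replicate 1 (adjusted p = 0.121).

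The falls of Timp1 and Timp3 ran beside those of the fibroblast and osteoblast markers, whose median log2 fold change in Trex1-KO against WT was -1.11 (Ibsp -1.82 ± 0.32, adjusted p = 0.00138, Alpl -1.67 ± 0.37, adjusted p = 0.00581, and Col1a2 -1.30 ± 0.09, adjusted p = 2.94e-07). Of the 13 of these markers that were tested, 10 were lower and 3 were not called. Among the latter, Dcn stood at 1.76 and 2.57 CPM in WT and at 2.90 to 3.43 CPM in the Trex1-KO libraries. The part of fibroblasts and osteoblasts in the fall of the 2 inhibitors was not tested. The sum of the 10 chondrocyte markers was also lower, at 95.6 and 113 CPM in WT and between 24.1 and 32.9 CPM in the Trex1-KO libraries. Col2a1 made up most of that sum, at 82.8 and 101 CPM in WT and 18.6 to 26.7 CPM in the Trex1-KO libraries. Of 6 tested genes 3 were lower with Trex1 loss, Col2a1 (-2.30 ± 0.11, adjusted p = 6.52e-09), Sox9 and Col11a1. Acan and Hapln1 had at most 1 count. The 7 osteoclast markers summed to 32.3 and 36.5 CPM in WT and 40.0 to 46.7 CPM in the Trex1-KO libraries, with Acp5 higher (1.21 ± 0.19, adjusted p = 0.00052), Ctsk lower and the defining receptor gene Calcr at 0. Neutrophil markers ran the other way, with a median log2 fold change of 3.14 (Cd177 3.86 ± 0.57, adjusted p = 0.000297, Camp 3.71 ± 0.58, adjusted p = 0.000491, and Lcn2), beside the rises of Mmp9, Mmp12 and Mmp13. Their part in those rises was likewise not tested. Macrophage markers included Fcgr1, higher by 1.14 ± 0.08 (adjusted p = 2.66e-07), and 2 more that were called higher, Cd68 and Adgre1. With SN-011 against vehicle-treated Trex1-KO, 1 of 8 macrophage markers was called, Fcgr1, lower by -0.49 ± 0.08 (adjusted p = 0.00289).

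**Figure D4:**
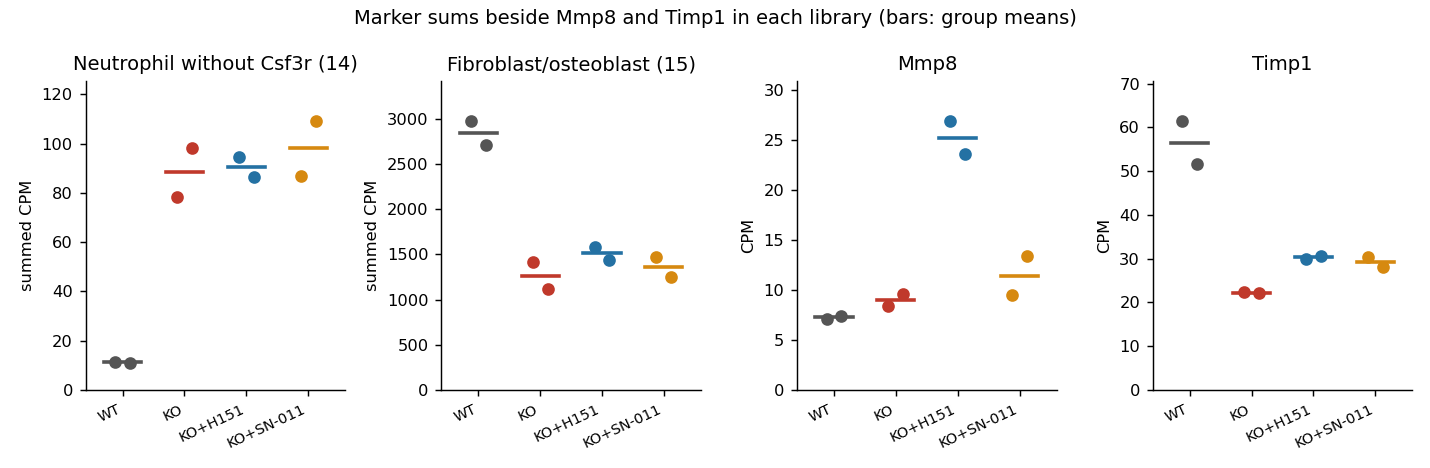
Summed CPM of the 14 neutrophil markers other than Csf3r and of the 15 fibroblast and osteoblast markers, and CPM of Mmp8 and Timp1, in each library (axes from 0, bars at group means). The fibroblast and osteoblast sum falls from 2710 and 2970 CPM in WT to between 1120 and 1580 CPM in the Trex1-KO libraries, and the neutrophil sum goes from 11.1 and 11.2 CPM to between 78.5 and 109 CPM.

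The antagonists were then compared with vehicle-treated Trex1-KO and with each other. Both contrasts with Trex1-KO use the same 2 vehicle-treated libraries, so likeness between them is not independent. The SN-011 libraries were registered apart from the others, so each SN-011 contrast also compares these 2 sets of libraries. With SN-011, 1 of 9 members was called (Mmp14), 4 had groups that did not overlap (43.4% of all genes), and the median log2 fold change was 0.03 against 0.01 over all genes. No count of members is given for H151, since the choice of members used that contrast. Side by side, H151 and SN-011 gave 1.47 and 0.32 for Mmp8, 0.70 and 0.08 for Mmp12, -0.01 and -0.48 for Mmp13, -0.70 and -0.68 for Mmp9, -0.48 and -0.83 for Mmp14, and 0.44 and 0.40 for Timp1.

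**Figure D5:**
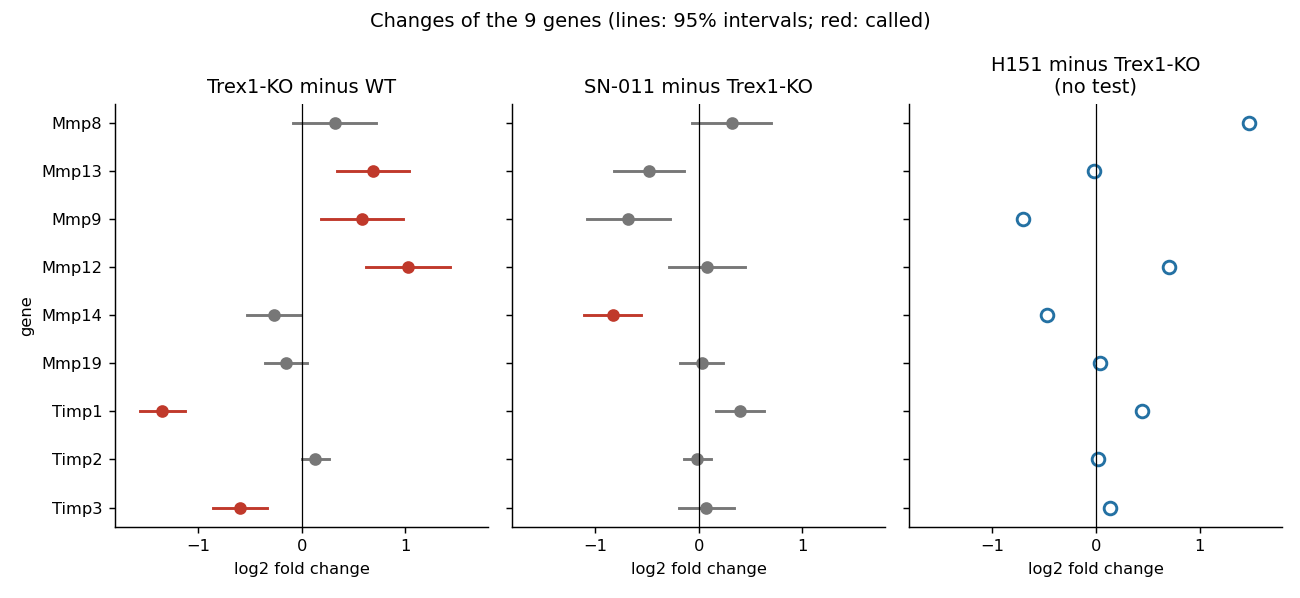
Log2 fold change of the 9 genes for Trex1-KO minus WT, SN-011 minus Trex1-KO and H151 minus Trex1-KO (points; lines, 95% intervals; red, called; open points, no test). Timp1 lies at -1.34 and Mmp12 at 1.02 in the first panel, Mmp14 at -0.83 is the only called gene in the second, and Mmp8 at 1.47 is highest in the third.

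Directly between the antagonists, each of edgeR's quasi-likelihood test, its exact test and DESeq2 called 0 of the 8 members other than Mmp8, and 3 had an unadjusted p under 0.05. Over all genes, 0.158% were called. The 3 were Mmp12 (-0.63, 95% interval -0.98 to -0.27, adjusted p = 0.271), Mmp13 (-0.47, 95% interval -0.81 to -0.12, adjusted p = 0.459) and Mmp14 (-0.36, 95% interval -0.63 to -0.08, adjusted p = 0.481), all lower with SN-011. These 3 of 8 had groups that did not overlap, as did 39.7% of all genes, and 1297 of all 14591 genes had an unadjusted p under 0.05. Mmp12 and Mmp14 passed the threshold without H151 replicate 2 (adjusted p = 0.0314 and 0.0279) and when all genes with at least 1 count were kept (adjusted p = 0.00125 and 0.00849). Keeping all genes with at least 1 count took the genes called in this contrast from 23 to 266, so calls gained under it are not read as support. For the other 5 members the interval of the difference lay within -0.40 and 0.45. Mmp8 was 2.23-fold lower with SN-011 than with H151, as a description. How the structures of the compounds relate to these values was not examined.

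Members also differed between the treated Trex1-KO cells and WT. With SN-011, 5 of 9 members were called against 11.7% of all genes, Mmp8 and Mmp12 higher and Mmp14, Timp1 and Timp3 lower. With H151, 5 of the 8 members other than Mmp8 were called against 11.8% of all genes, Mmp12 and Mmp13 higher and Mmp14, Timp1 and Timp3 lower. Both contrasts share the WT libraries with the knockout contrast. The neutrophil markers were higher in each (9 of 10 tested) and the fibroblast and osteoblast markers lower (9 of 13), and their part in these values was not tested.

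Other genes of the system were read from 4 lists of 65 genes, of which 51 were tested. With Trex1 loss, 12 were higher and 18 lower, in a contrast where 16.4% of all tested genes were called. Among the other MMP and TIMP genes, 8 of 18 were tested, 0 were higher and 3 were lower: Mmp23 (-1.68 ± 0.16, adjusted p = 5.45e-06), Mmp17 (-1.26 ± 0.32, adjusted p = 0.0137) and the gelatinase Mmp2 (-0.94 ± 0.11, adjusted p = 4.58e-05). Timp4, the fourth inhibitor, had at most 2 counts. Mmp2, the substrate of Mmp14, fell from a mean of 50.5 CPM in WT to 26.4 in Trex1-KO and stood at 27.9 with H151 and 26.9 with SN-011.

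Among ADAM and ADAMTS proteases, which shed surface proteins or cleave proteoglycans, 3 of 14 tested were higher with Trex1 loss and 7 lower. The higher genes were Adam8 (0.73 ± 0.07, adjusted p = 5.31e-06), Adam17, the shedding enzyme of tumour necrosis factor (0.35 ± 0.06, adjusted p = 0.00115), and Adam9 (0.20 ± 0.05, adjusted p = 0.0213). The lower genes were led by the aggrecanases Adamts5 (-1.71 ± 0.22, adjusted p = 8.61e-05) and Adamts1 (-1.71 ± 0.20, adjusted p = 3.11e-05) and by Adamts12 (-1.44 ± 0.21, adjusted p = 0.000263). Among genes of MMP activation, docking and inhibition, 3 of 18 were higher (Lcn2, Lrp1 and Cd44) and 5 lower, among them Thbs2 (-1.27 ± 0.19, adjusted p = 0.000372), the collagen receptor Mrc2 (-1.11 ± 0.13, adjusted p = 5.09e-05), Thbs1 and Spp1. Among other matrix-degrading enzymes, 6 of 11 were higher, led by heparanase, Hpse (0.75 ± 0.06, adjusted p = 1.92e-06), and the lysosomal cathepsins Ctss (0.48 ± 0.06, adjusted p = 4.62e-05) and Ctsz (0.35 ± 0.07, adjusted p = 0.00319), and 3 were lower: Prss23 (-1.52 ± 0.16, adjusted p = 1.72e-05), Htra1 (-1.02 ± 0.17, adjusted p = 0.000838) and Ctsk (-0.97 ± 0.22, adjusted p = 0.00663). The falls in all 4 lists ran beside those of the fibroblast and osteoblast markers, 10 of 13 lower with a median log2 fold change of -1.11, and the part of those cells in them was not tested.

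With SN-011 against vehicle-treated Trex1-KO, each of edgeR's quasi-likelihood test, its exact test and DESeq2 called 0 of these 51 genes, and 6 had an unadjusted p under 0.05. Over all 14591 tested genes 2.33% were called and 1754 had an unadjusted p under 0.05. With H151, 4 of the 51 were called, against 2.23% of all genes, and all 4 were higher: Mmp27 (0.62), Adam19 (0.48), Thbs1 (0.39) and the cathepsin Ctsl (0.33). Mmp27 neighbours Mmp8, and the contrast is the one that the choice of members used, so nothing is read from this count. Between the antagonists 2 were called, against 0.158% of all genes, both lower with SN-011: Adam19 (-0.65 ± 0.09, adjusted p = 0.0117) and Thbs1 (-0.45 ± 0.07, adjusted p = 0.0261), whose product thrombospondin 1 binds MMPs and their receptor Lrp1.

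Against WT, 27 of the 51 genes were called with H151 (15 higher and 12 lower, beside 11.8% of all genes) and 24 with SN-011 (11 higher and 13 lower, beside 11.7%). Among the other MMP genes, Mmp27 was higher with H151 (0.85 ± 0.09, adjusted p = 4.02e-05) and with SN-011 (0.38 ± 0.09, adjusted p = 0.0166). Mmp23 and Mmp2 were lower with both antagonists, and Mmp17 was called lower with SN-011 (-1.40 ± 0.32, adjusted p = 0.0108). Adam8 was higher with H151 (0.93 ± 0.07, adjusted p = 1.41e-06) and with SN-011 (0.75 ± 0.07, adjusted p = 8.85e-06), and Adam9 was called higher with H151 (0.19 ± 0.05, adjusted p = 0.0361). The aggrecanase Adamts1 was lower with H151 (-1.58 ± 0.19, adjusted p = 0.000107) and with SN-011 (-1.44 ± 0.19, adjusted p = 0.000183), as were Adamts5, Adamts12 and Adamts2 with both, and Adam19 was called lower with SN-011 (-0.66 ± 0.09, adjusted p = 0.000203).

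Of the activation, docking and inhibition genes, 6 were called higher than WT with H151, led by Lcn2 (3.31), the urokinase gene Plau (0.52) and Lrp1 (0.46), and 3 with SN-011, Lcn2 (3.06), the integrin gene Itgb3 (0.92) and Lrp1 (0.33). In each case 4 were lower, among them Thbs2 (-1.09 with H151 and -1.28 with SN-011), Mrc2 (-0.88 and -1.02) and Thbs1 (-0.60 and -1.05). Of the other matrix-degrading enzymes 6 were higher with each antagonist, led by Ctsl (0.63 with H151 and 0.37 with SN-011), Hpse (0.57 and 0.66) and Ctss (0.38 and 0.41). Prss23 was lower with both (-1.15 and -1.26), and Htra1 was called lower with H151 (-0.71). These are log2 fold changes. The neutrophil markers, which include Lcn2, and the fibroblast and osteoblast markers moved in the same contrasts, and their part was not tested here either.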

How the data were processed

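RNA-seq libraries of WT, Trex1-KO, Trex1-KO+H151 and Trex1-KO+SN-011 BMDMs (2 each) were grouped by their titles. The authors trimmed reads with Trimmomatic, aligned them with hisat2 and deposited raw counts for 54532 Ensembl genes, with no normalization. The submitters' processing notes name HISAT2, HTSeq and mm10 (GRCm38), whereas the study's methods name featureCounts on uniquely mapped pairs. The study's methods call the library protocol strand-specific, while tool versions, annotation release and the strand setting of the counting are not given in the sources used here. GENCODE mouse release M21 held 54495 of the identifiers. Of 1228 genes whose exonic bases all lie in exons of other genes, 31 had any count, as had 3 of the 454 overlapped from the opposite strand only, so shared bases on either strand lower the counts of overlapping genes.

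In R 4.3.3, edgeR 4.0.16 fitted all 8 libraries with 1 mean per group, TMM scaling and filterByExpr (minimum count 10, minimum total 15), which left 14591 genes. Each contrast was tested two-sided (quasi-likelihood F, Benjamini-Hochberg adjustment, threshold 0.05). The SE, which is approximate, is the size of the log2 fold change divided by the root of F. The code was checked on simulated counts. DESeq2 1.42.0, the edgeR exact test and other settings were alternatives. Total counts ran from 11845470 to 17284863, and a floor of 3 counts equals 0.174 to 0.254 CPM (counting error only, since reads are not independent molecules). No 2 of the 8 libraries held identical counts. Promoter windows are from RefSeq (GRCm38.p6), which matched 7 of the 9 members.

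The members and lists were chosen with earlier results of these data known. Named are all members and, per protease list and contrast, up to 3 called genes a direction with the largest change, genes of counts of 5 or fewer, and the 5 genes most like Mmp8. Examples from the marker lists, Dcun1d5, Tmem123 and the silent neighbours were named after their values were seen. An item that this rule would name is not reported here.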

Additional observations from a re-analysis of the deposited data

How the results depend on the processing

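Over all alternatives, 471 of 516 tested log2 fold changes of members kept their direction and their side of the threshold, 18 lost the call, 11 gained one and 16 changed sign. The calls of Timp1, Timp3 and Mmp12 for Trex1 loss, of Mmp14 for SN-011 against Trex1-KO, and of Timp1, Mmp12 and Mmp14 for either antagonist against WT held in every alternative run. Counts per library ran from 91 to 173 for Mmp9 and from 8952 to 13364 for Timp2, so counting error weighs more on Mmp9. Where leaving out a library left a group with 1, that library was assumed to vary like the other groups.

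Leaving out 1 library at a time gave 3 to 4 members called for Trex1 loss, 3 to 6 for H151 against WT, 3 to 5 for SN-011 against WT and 0 to 2 for SN-011 against H151, with the 2 found without H151 replicate 2. Genes called in all ranged from 1556 to 1933 for Trex1 loss, from 971 (without WT replicate 1) to 1772 for H151 against WT, from 909 (without SN-011 replicate 2) to 1159 for SN-011 against WT, from 131 (without SN-011 replicate 1) to 302 for SN-011 against Trex1-KO, and from 2 (without SN-011 replicate 1) to 291 (without H151 replicate 2) for SN-011 against H151, where all libraries gave 23. The cause was not tested.

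The changes of sign were all in values that were never called. With SN-011 against Trex1-KO, leaving out libraries gave -0.108 to 0.26 for Timp3, -0.001 to 0.058 for Mmp19, -0.09 to 0.253 for Mmp12 and -0.067 to 0.04 for Timp2, and scaling by total counts gave Timp2 0.013. With SN-011 against H151 it gave -0.188 to 0.244 for Mmp9, -0.116 to 0.01 for Timp1, -0.243 to 0.084 for Timp3, -0.042 to 0.009 for Mmp19 and -0.11 to 0.051 for Timp2. Against WT, Mmp9 ran from -0.352 to 0.079 with H151 and from -0.284 to 0.09 with SN-011.

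Keeping all genes with at least 1 count gave 525 genes called for H151 and 679 for SN-011 against Trex1-KO, and 266 between the antagonists, with 3 members called for SN-011 against Trex1-KO and 2 between the antagonists. This setting also took the adjusted p of Mmp14 with SN-011 against Trex1-KO from 0.0019 to 6.29e-20, at a log2 fold change of -0.831 in both. The edgeR exact test called 3 members for SN-011 against Trex1-KO and 84 genes between the antagonists, where DESeq2 called 38.

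The labels do not say what the replicate number stands for. Same-numbered libraries deviated together with correlations of 0.19 for Trex1-KO and H151 and between -0.02 and 0.06 for the other pairs of groups. A replicate block in the fit gave 44 genes called between the antagonists against 23 without it, and 6 members called for Trex1 loss against 5 (Mmp14 added, adjusted p = 0.0187). The block changed no other count of members called.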
